A study of Homo sapiens with 6 samples.

Results

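The genes described here mostly encode proteins that cut introns out of messenger RNA precursors, as spliceosome parts or as factors choosing splice sites. They were chosen by name: each probe set annotated to 1 gene whose symbol begins with SRSF, HNRNP, SNRP, SF3A, SF3B, PRPF or U2AF, or with LSM and a digit, was a member, and pseudogenes were left out. This gave 217 of the 54613 probe sets on the array, standing for 79 of 19775 named genes. Of these genes, 2 whose symbols end in DT, HNRNPD-DT and SNRPF-DT, are noncoding transcripts that start beside a member gene and are no splicing factors. A further 25 probe sets named a gene of this kind together with other genes and were not used. The members LSM1, LSM10, LSM11, LSM12, LSM14A and LSM14B act mainly outside splicing and are part of all counts of splicing genes below.

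RNA was taken from NCI-H292, an established cell line grown from a human lung tumour. The CT45A1 overexpression group had been stably transfected with CT45A1-Venus, a cancer/testis antigen joined to a fluorescent protein, and the CT45A1 negative group with the Venus vector as control. Both groups were grown in the same DMEM medium with serum, and each had 3 replicates on 1 array each. Whether each replicate was its own culture, and how many clones there were, is not given in the labels, so a p-value here covers only how these arrays vary, and that may be technical variation.

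In the cell, splicing starts when U1 snRNP (a small nuclear RNA with its proteins) pairs with the 5′ splice site and U2AF marks the 3′ splice site for U2 snRNP. The tri-snRNP of U4, U6 and U5, which holds several PRPF proteins, then joins and the complex is rearranged for catalysis. A ring of Sm proteins surrounds most spliceosomal RNAs, and a related ring of LSm proteins binds U6. SR proteins (SRSF genes) mostly promote the use of the exons they bind, whereas hnRNP proteins often oppose it. Many genes of both families control their own level through alternative exons or retained introns that send the transcript to decay, so probe sets of 1 gene can report different transcripts.

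The arrays were checked first. The brighter CT45 probe set, which is annotated to several CT45 genes, gave signals of 518, 700.1 and 445 on the overexpression arrays and 23.1, 15.8 and 1.95 on the negative ones, as labelled. All 8 epithelial markers examined were bright enough to test, as were 2 of 3 endothelial markers, 1 of 3 leukocyte markers and 0 of 4 fibroblast markers. The mean log2 signals with and without CT45A1 were 7.66 and 6.87 for CDH5, 7.48 and 7.16 for PECAM1 and 7.56 and 7.16 for CD79A, below those of the epithelial markers (7.84 for CLDN4 without CT45A1 to 14.76 for KRT18), and their part in the results was not tested. Over tested probe sets, pairs of arrays correlated at 0.976 to 0.982 within a group and at 0.970 to 0.976 between groups. Signal at the 3′ end of actin over that at its 5′ end, which tracks how intact the RNA and how long the labelled copies are, was 1.42, 1.49 and 1.55 with CT45A1 and 1.70, 1.64 and 1.91 without it, so that it too separated the groups. Signals are MAS5 intensities on a linear scale, differences are overexpression minus negative on the log2 scale, and errors are limma standard errors unless an SD is named. Of the 217 probe sets, 187 from 74 genes exceeded the array median on at least 3 of the 6 arrays and were tested.

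Splicing gene transcripts differed little between the groups. Of 187 probe sets, 8 passed at an adjusted p under 0.05 in limma, 2 higher and 6 lower with CT45A1, and 179 did not pass. The share called was 4.28%, against 3.23% over all 27618 tested probe sets (1.89% higher and 1.34% lower). Among probe sets with a mean log2 signal of at least 10, a group chosen after the data were seen, it was 4.07% of 123 members against 5.11% of all 8395. The 8 belonged to 8 genes. SRSF1, SRSF5 and SRSF11, HNRNPA3, HNRNPUL2 and LSM1 fell at 1 probe set each, and SRSF7 and PRPF31 rose at 1 probe set each. With the actin ratio as a covariate only PRPF31 passed. Because that ratio separated the groups, such a fit estimates the group difference less precisely at any probe set. A call lost in it is thus not particular to a gene. Without the variance trend in limma 0 members and 4 of all probe sets passed, with 38 members at an unadjusted p under 0.05. Since total RNA of a whole culture was measured, fewer cells with a transcript and less of it per cell could not be told apart.

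Small differences leaned downward. The median over the 187 was -0.08, with the middle of the distribution between -0.18 and 0.07, and 123 lay below 0 against 64 above. Over all tested probe sets the median was 0.03 and 44.5% lay below 0. Members were brighter than most, with a median of the mean log2 signal of 10.85 against 8.78, and bright probe sets leaned downward in general: at a mean log2 signal of at least 10 the medians were -0.08 for members and -0.04 for all, and 71.5% and 59.6% lay below 0. The 3 overexpression arrays lay wholly below the 3 negative ones at 54 members and wholly above them at 15, together 36.9%, against 26.6% of all tested probe sets (11.4% lower and 15.2% higher). Among bright probe sets the shares were 43.9% of members and 32.7% of all, of which 34.1% and 21.3% were lower. After centring each array on its own median, which moved the median of all tested probe sets from 0.03 to -0.11, 1 member was higher and 49 were lower. Most calls over all probe sets were lower in that fit too, with counts in the section on processing. Quantile normalization gave 3 members higher and 5 lower, and the count over all probe sets in that fit is not given here.

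**Figure D1:**
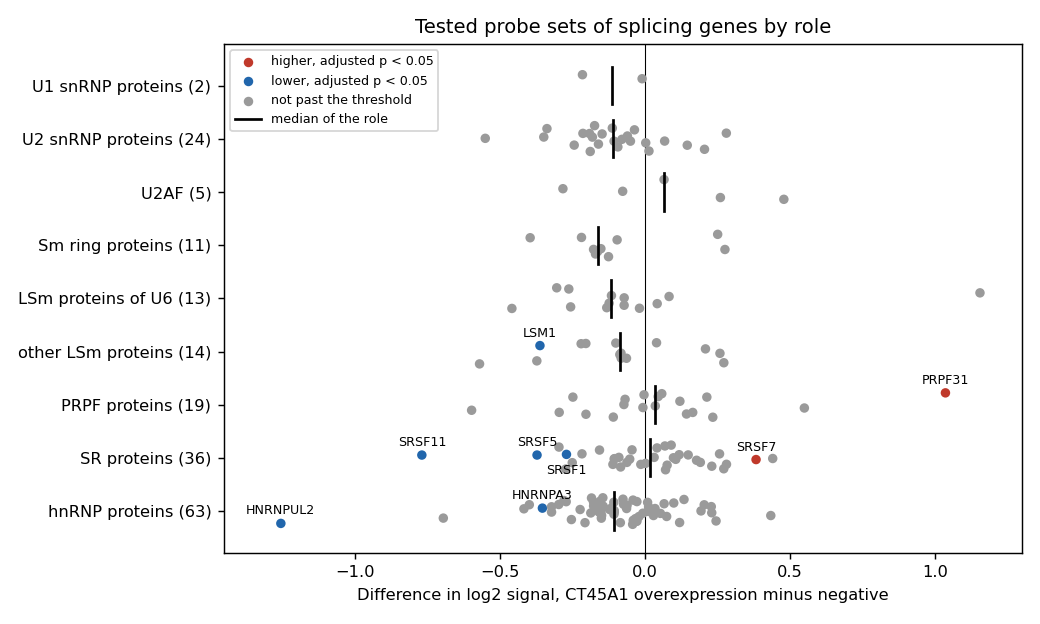
Difference in log2 signal (x axis) of each tested probe set of a splicing gene, by the role of its protein (y axis, with the number of probe sets), with the role's median as a black line. Coloured points are the 8 past the threshold, with PRPF31 at 1.03 and HNRNPUL2 at -1.25 farthest from 0 among them.

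Proteins of U1 snRNP were measured by 2 probe sets and neither passed. At 1 the unadjusted limma p was under 0.05, a level reached by 20.7% of all tested probe sets. SNRPA, which binds a stem-loop of U1 RNA, gave 2104, 2201 and 2319 with CT45A1 against 2545, 2456 and 2688 without it. Its arrays did not overlap, and the difference was -0.22 (SE 0.07, limma adjusted p = 0.137). It passed after centring on the array median, with an adjusted p of 0.0227, the lowest of 17 alternatives, which ran up to 0.853. SNRPC, which helps U1 hold the 5′ splice site, differed by -0.01.

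The Sm ring, the core of most spliceosomal particles, had 11 tested probe sets from 7 genes, of which 0 passed in limma, 9 lay below 0 and 2 above, with a median of -0.16. By an unadjusted limma p under 0.05, 5 were lower and 2 higher. That level was reached by 20.7% of all tested probe sets and 26.5% of the bright ones, although the 11 include a dim one. SNRPG gave 15713, 15722 and 15682 with CT45A1 against 17642, 17426 and 18209 without it, a difference of -0.18 (SE 0.05, limma adjusted p = 0.0877). SNRPD2 gave 17092, 17833 and 18225 against 19626, 19194 and 20216, a difference of -0.15. In both the groups were apart, with gaps small beside their level. SNRPE differed by -0.16, -0.17 and, at a dim probe set, -0.40, SNRPF by -0.17, SNRPD1 by -0.13 and -0.22 and SNRPD3 by -0.10.

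SNRPB, which encodes SmB and SmB', lay on the other side at both of its probe sets. One gave 3933, 3659 and 3932 with CT45A1 against 3043, 3240.5 and 3409 without it, a difference of 0.25 (SE 0.07, limma adjusted p = 0.0862). The other gave 5549, 5327 and 6375 against 5075, 4507 and 4645, a difference of 0.28 (SE 0.08, limma adjusted p = 0.0981). Neither passed, although no negative array reached an overexpression one at either. The single probe set of SNRPN was too dim to test.

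U2 snRNP proteins recognise the branch point, and SF3B1 is the subunit that clamps it. Of 24 tested probe sets from 11 genes, 0 passed in limma, 18 lay below 0 and 6 above, and the median was -0.11. By an unadjusted limma p under 0.05, 8 were lower (33.3%) and 1 higher (4.17%), against 8.50% and 12.2% of all tested probe sets. Among all bright probe sets these shares were 17.0% and 9.49%, although the 24 include dimmer ones. All 5 SF3B1 probe sets lay below 0, at -0.08 and -0.06 for the bright ones and -0.11 to -0.35 for the dimmer ones. SNRPA1, a protein of U2, differed by -0.15 to -0.19 at 3 probe sets and by 0.21 at the dimmest. The SF3a subunits SF3A1, SF3A2 and SF3A3 differed by -0.55 to 0.07 over 7 probe sets, and SF3B4, SF3B5, SF3B6 and SNRPB2 by -0.16, -0.21, -0.17 and -0.05.

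SF3B3, a scaffold of the SF3b complex, was the U2 gene with the smallest p and lay above 0. Its bright probe set gave 3257, 3607 and 3403 with CT45A1 and 2761, 2974 and 2719 without it. These groups were apart, with a difference of 0.28 (SE 0.07, limma adjusted p = 0.0635). It passed in 4 of 16 alternatives, over which the adjusted p ran from 0.0430 to 0.383, and its dimmer probe set differed by 0.00. SF3B2 differed by 0.01 and 0.15.

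U2AF, the pair of U2AF1 and U2AF2 that reads the 3′ splice site, had 5 tested probe sets and none passed in limma. The unadjusted limma p was under 0.05 at 2, both higher, where 12.2% of all tested probe sets were higher at that level. A dim probe set of U2AF1 gave 296, 369 and 295 with CT45A1 against 211, 224 and 252 without it. Those groups were apart by 0.48 (SE 0.15, limma adjusted p = 0.120), while the far brighter U2AF1 probe set differed by -0.08 with overlapping arrays. U2AF2 differed by 0.26 at its bright probe set and by -0.28 at a dim one. U2AF1L4, a relative of U2AF1, was too dim to test.

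The LSm proteins of the U6 ring, LSM2 to LSM8, had 13 tested probe sets, of which 0 passed in limma, 10 lay below 0 and 3 above. An unadjusted limma p under 0.05 was reached by 3, all lower. That is 23.1%, where 8.50% of all tested probe sets and 17.0% of the bright ones were lower at that level. LSM3 gave 5044, 5276 and 5915 with CT45A1 against 6743, 6149 and 6464 without it, a difference of -0.26 (SE 0.07, limma adjusted p = 0.0922). It passed after centring on the array median, at 0.0171, the lowest of 17 alternatives, which ran up to 0.631. LSM7 gave 4399.6, 4274 and 4577 against 5097, 4869 and 5983, a difference of -0.26. Both were lower on all 3 overexpression arrays, as were LSM2, 2 of 3 LSM5 probe sets and 2 of 3 LSM4 probe sets, which makes 7 of the 13. That is 53.8%, against 11.4% of all tested probe sets and 21.3% of the bright ones, although the 13 include dimmer ones. The differences were -0.12 for LSM2, -0.12 and -0.30 for LSM5 and -0.07 and, at a dim probe set, -0.46 for LSM4.

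A dim LSM8 probe set had the widest value of the U6 ring, 1.15 with an SE of 0.70. Its signals were 144, 105 and 95.1 with CT45A1 against 109.8, 13.0 and 91.8 without it, so that negative replicate 2 alone was low. The bright LSM8 probe set differed by 0.04, LSM6 by -0.07, and the third LSM4 probe set by 0.08.

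Of the other LSm genes, which act mainly outside splicing, LSM1 passed. LSM1 takes the place of LSM8 in a cytoplasmic ring that promotes the removal of messenger RNA caps and decay. Its signal was 2128, 2022 and 2149.99 with CT45A1 against 2707, 2493 and 2907 without it, every overexpression array below every negative one. It fell by 0.36 on the log2 scale (SE 0.08, limma adjusted p = 0.0383), with means of 11.04 ± 0.05 and 11.40 ± 0.11 (SD, n = 3), at its only probe set. The call held in 9 of 17 alternatives, over which the limma adjusted p ran from 0.00647 to 0.458. It was lost without overexpression replicate 1, 2 or 3 (0.108, 0.154 and 0.0723) and without negative replicate 1 or 3 (0.111 and 0.0637).

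The remaining 13 probe sets of this role did not pass. LSM14A, a component of cytoplasmic RNA granules, differed by 0.26 and 0.27 at 2 probe sets and by -0.06 at the other one. LSM14B, its relative, differed by -0.57, -0.37, -0.22 and 0.04. LSM10 and LSM11, which sit in the U7 ring for histone messenger ends, differed by -0.08 and by -0.20 to 0.21, and LSM12 by -0.08 and -0.10.

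Among PRPF genes, 1 of 19 probe sets rose and 18 did not pass, a share called of 5.26% against 3.23% of all tested probe sets. PRPF31, a protein of the U4/U6 particle that is needed for tri-snRNP formation and is mutated in a form of retinitis pigmentosa, gave 959, 840.01 and 840.4 with CT45A1 at its dimmer tested probe set. The negative arrays gave 442, 342 and 519.9, so that the lowest overexpression signal lay well above the highest negative one. The rise was 1.03 (SE 0.15, limma adjusted p = 0.00760), or 2.05-fold, with group means of 9.78 ± 0.11 and 8.74 ± 0.30 (SD, n = 3). It passed in 15 of 16 alternatives, including all 6 that left out an array, and failed without the variance trend (limma adjusted p = 0.0750, the highest; the lowest was 0.00418). The brighter PRPF31 probe set gave 3204, 3180.1 and 3333 against 2884, 2964 and 3092, a difference of 0.12 (SE 0.07, limma adjusted p = 0.326).

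PRPF6, the protein that bridges U5 to the U4/U6 particle, had probe sets on both sides of 0. One gave 964, 891 and 1228 with CT45A1 against 1308, 1482 and 1883 without it, a difference of -0.60 (SE 0.15, limma adjusted p = 0.0604). The other gave 1277, 1345 and 1467 against 1033, 1214 and 1291, a difference of 0.21 (SE 0.10, limma adjusted p = 0.270). Neither passed. PRPF19, a ubiquitin ligase that activates the spliceosome, differed by -0.30 (SE 0.09, limma adjusted p = 0.0996). PRPF8, the protein at the catalytic core, differed by 0.04 at signals of 4774, 4937 and 5072 against 4704, 4486 and 5261, which overlapped. PRPF3 and PRPF4 of the U4/U6 particle differed by 0.16 and by -0.07 and 0.14. PRPF18, PRPF38A, PRPF38B, PRPF39 and PRPF40B lay between -0.25 and 0.55.

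SR genes gave 4 of the 8 calls, 1 higher and 3 lower among 36 tested probe sets from 9 genes, while 32 did not pass. The share called was 11.1%, against 3.23% of all tested probe sets and 5.11% of the bright ones. The role's median was 0.02, with 19 probe sets above 0 and 17 below. At an unadjusted limma p under 0.05 there were 6 lower (16.7%) and 1 higher (2.78%), against 8.50% and 12.2% of all tested probe sets. Among all bright probe sets the shares were 17.0% and 9.49%. The 36 SR probe sets include dimmer ones, so the comparisons with bright probe sets are of unlike brightness.

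SRSF1, the founding SR protein, is measured by 8 probe sets that all entered the test. The brightest gave 12959.9, 13101 and 12667 with CT45A1 against 14581, 15962 and 16209 without it, with all overexpression arrays lower. It fell by 0.27 (SE 0.06, limma adjusted p = 0.0384). A further bright probe set gave 4214, 4067 and 4170.4 against 4805, 5075 and 4933, a difference of -0.25 that narrowly missed (limma adjusted p = 0.0533). The other 6 ran from -0.06 to 0.44, and 5 of them lay above 0 without passing. The call was lost when any 1 of the 6 arrays was left out (limma adjusted p = 0.0616 to 0.123), and it held in 5 of 16 alternatives, with the adjusted p running from 0.00369 to 0.278.

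SRSF5, an SR protein of the nuclear speckles, gave 2602, 2896 and 2874 with CT45A1 against 3449.8, 3538 and 3842 without it at the probe set that passed. It fell by 0.37 (SE 0.07, limma adjusted p = 0.0300), with all overexpression arrays below all negative ones. That probe set ends in _x_at, a kind that can also match other transcripts. The brightest SRSF5 probe set gave 3623, 3775 and 4194 against 4272, 4402 and 4788, also without overlap, a difference of -0.22 (limma adjusted p = 0.148), and a dim one differed by 0.26. The call was lost when any 1 array was left out (limma adjusted p = 0.0510 to 0.110), and held in 8 of 16 alternatives, with the adjusted p running from 0.00570 to 0.418.

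SRSF11, a serine- and arginine-rich splicing regulator, differed at its dimmest tested probe set. Signals there were 363, 399 and 416 with CT45A1 against 579, 645 and 799 without it, with no overlap. This probe set fell by 0.77 (SE 0.14, limma adjusted p = 0.0184), or 1.70-fold, with means of 8.62 ± 0.10 and 9.38 ± 0.24 (SD, n = 3). The brightest SRSF11 probe set, with signals of 12951, 13874 and 10400 against 11268, 13591 and 10411, overlapped and differed by 0.08, and one of middle brightness differed by -0.11. The call was lost without overexpression replicate 1 or 2 (limma adjusted p = 0.0721 and 0.0748) and held in 13 of 17 alternatives, with the adjusted p running from 0.00418 to 0.381.

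SRSF7, an SR protein with a zinc knuckle, was the SR gene with a probe set called higher. The probe set concerned gave 1334, 1265 and 1303 with CT45A1 against 905, 1044 and 1049.99 without it, and all overexpression arrays were higher. It rose by 0.38 (SE 0.09, limma adjusted p = 0.0492), while its other 3 probe sets lay at -0.05, -0.11 and -0.27 and did not pass. The call sat at the threshold. It held in 4 of 17 alternatives, with the limma adjusted p running from 0.0353 to 0.195, and was lost without overexpression replicate 1, 2 or 3 (0.147, 0.145 and 0.115) and without negative replicate 1 or 2 (0.139 and 0.0852).

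The other SR genes had no call. SRSF6 gave 3202, 3516 and 3834 against 3928, 4318 and 4709.9 at its bright probe set, a difference of -0.30 (SE 0.09, limma adjusted p = 0.103) with no overlap, and -0.09 at the other one. SRSF3, the smallest SR protein, differed by -0.10 and 0.09 at its bright probe sets and by -0.16 and 0.28 at dimmer ones. All 3 tested probe sets of SRSF4 lay above 0, at 0.12 to 0.27. SRSF10 differed by -0.04 to 0.11 over 5 probe sets, and SRSF8 by -0.08 to 0.23 over 4. SRSF12 was too dim to test.

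The promoter windows of the 4 SR genes with a call are shown because the called probe set was lower in 3 and higher in 1. Each of these genes also had a tested probe set of the opposite sign, so these are not directions of whole genes. Each runs from 250 bases before to 50 after the annotated start, 5′ to 3′ along the gene's strand, from RefSeq on GRCh38.p14. The windows lie at chr17:58007197-58007496 on the minus strand for SRSF1, chr14:69766892-69767191 on the plus strand for SRSF5, chr1:70221130-70221429 on the plus strand for SRSF11 and chr2:38751445-38751744 on the minus strand for SRSF7. Capitals mark the motif CCAAT, the motif TATAAA, the motif GGGCGG or the motif CCGGAAG, searched on both strands, and matches of different motifs may share bases.
SRSF1: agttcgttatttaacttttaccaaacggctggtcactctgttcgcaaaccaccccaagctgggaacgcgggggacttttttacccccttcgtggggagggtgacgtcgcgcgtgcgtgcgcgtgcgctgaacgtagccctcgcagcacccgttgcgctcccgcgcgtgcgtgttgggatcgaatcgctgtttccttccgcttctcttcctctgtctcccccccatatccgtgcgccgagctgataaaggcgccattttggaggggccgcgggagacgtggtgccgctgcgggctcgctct
SRSF5: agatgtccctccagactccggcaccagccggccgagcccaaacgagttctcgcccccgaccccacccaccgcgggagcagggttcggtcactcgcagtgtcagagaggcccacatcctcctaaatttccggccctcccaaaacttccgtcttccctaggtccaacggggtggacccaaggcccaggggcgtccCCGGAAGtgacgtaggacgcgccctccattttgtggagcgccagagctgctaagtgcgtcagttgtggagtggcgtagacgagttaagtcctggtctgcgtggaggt
SRSF11: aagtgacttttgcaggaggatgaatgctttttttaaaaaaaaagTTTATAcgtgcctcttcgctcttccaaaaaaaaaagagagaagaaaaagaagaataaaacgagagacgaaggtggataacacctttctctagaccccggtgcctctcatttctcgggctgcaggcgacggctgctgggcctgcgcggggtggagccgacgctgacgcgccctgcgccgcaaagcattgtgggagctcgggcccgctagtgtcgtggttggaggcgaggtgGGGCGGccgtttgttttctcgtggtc
SRSF7: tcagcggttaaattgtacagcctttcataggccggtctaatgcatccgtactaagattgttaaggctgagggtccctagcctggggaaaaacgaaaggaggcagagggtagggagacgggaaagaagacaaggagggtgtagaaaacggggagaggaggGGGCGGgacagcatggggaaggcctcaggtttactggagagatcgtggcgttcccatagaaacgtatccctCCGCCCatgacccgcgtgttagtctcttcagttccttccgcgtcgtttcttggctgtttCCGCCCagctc

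No motif of the 4 was common to these windows. The SRSF1 window held 0 matches, SRSF5 held 1 CCGGAAG, SRSF11 held 1 TATAAA and 1 GGGCGG, and SRSF7 held 3 GGGCGG. Windows were found for 71 of the 79 member genes. CCGGAAG, a string found in sites of ETS factors, occurred in 32.39% of member windows, in 19.74% of the 9717 windows of genes tested on the array and in 10.67% of all 27305. CCAAT occurred in 43.66%, 37.08% and 35.70%, GGGCGG in 64.79%, 69.82% and 44.59%, and TATAAA in 8.45%, 5.78% and 11.95%. The median GC content was 62.0% in member windows, 65.3% in those of tested genes and 58.3% in all. These shares describe letters in a window and were not tested.

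**Figure D2:**
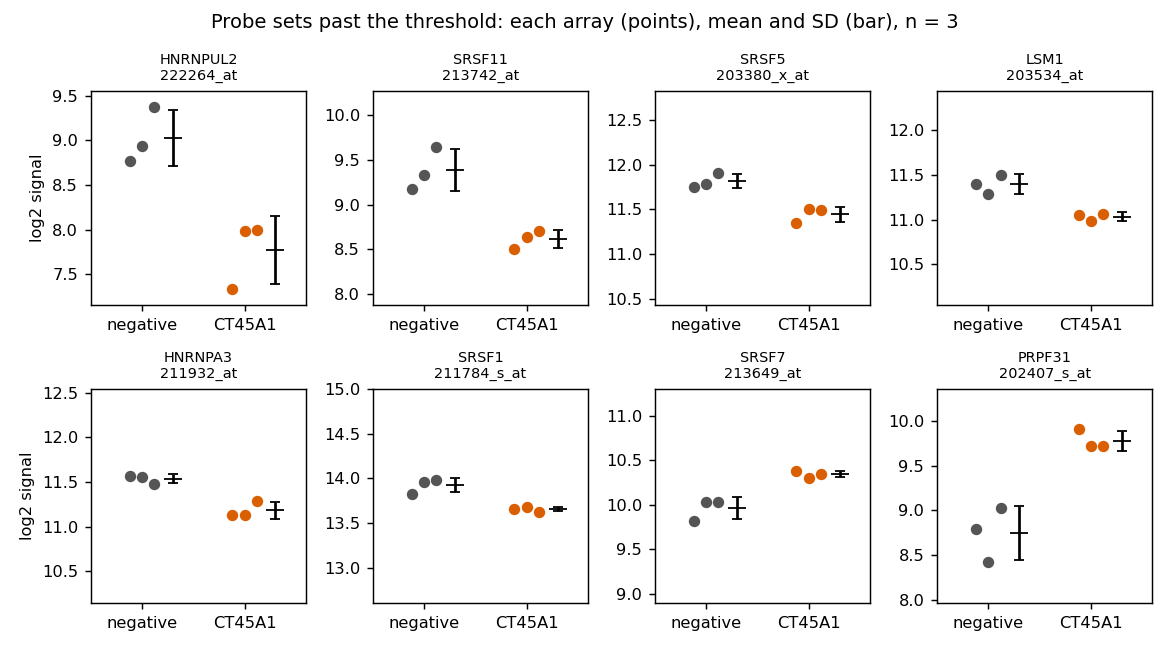
The log2 signal (y axis, each panel spanning the same number of units) of the 8 probe sets past the threshold on each array, as points, for the negative and CT45A1 overexpression groups, with the mean and SD (n = 3) as a bar. In every panel the 3 points of one group lie apart from those of the other, most widely for HNRNPUL2 (-1.25) and PRPF31 (1.03) and least for SRSF1 (-0.27).

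hnRNP genes gave 2 calls among 63 tested probe sets from 19 genes, both lower, and 61 did not pass. This was 3.17% called, against 3.23% of all tested probe sets. Of the 63, 46 lay below 0 and 17 above, with a median of -0.11; at an unadjusted limma p under 0.05 there were 14 lower and 3 higher, where 8.50% of all tested probe sets were lower and 12.2% higher. At a mean log2 signal of at least 10, 21.7% of 46 hnRNP probe sets were lower and 6.52% higher by that measure, against 17.0% and 9.49% of all.

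HNRNPUL2, a relative of hnRNP U that also takes part in processing DNA ends, had the largest decrease among the 187 tested probe sets. Its dimmer probe set gave 161, 253 and 255 with CT45A1 against 436, 489 and 663 without it, with no overlap. It fell by 1.25 (SE 0.21, limma adjusted p = 0.0155), or 2.38-fold, with means of 7.77 ± 0.38 and 9.03 ± 0.31 (SD, n = 3). The brighter probe set gave 2719, 2679 and 3014 against 3003, 3145 and 3142, a difference of -0.14 (SE 0.07, limma adjusted p = 0.284), with overlapping arrays. The call held in 15 of 17 alternatives and without each single array, with the limma adjusted p running from 0.00343 to 0.379. It failed with the actin ratio as a covariate, where the difference was -0.52 (adjusted p = 0.379), and without the variance trend (adjusted p = 0.0990).

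HNRNPA3, an A/B-type hnRNP, lay below 0 at all 3 of its probe sets, and 1 passed. That one gave 2240.4, 2237 and 2508 with CT45A1 against 3035, 3024 and 2854 without it, and fell by 0.35 (SE 0.07, limma adjusted p = 0.0347). A similarly bright one gave 2329, 2158 and 2241 against 2678, 2687 and 2795, a difference of -0.28 (SE 0.07, limma adjusted p = 0.0571). At both, every overexpression array lay below every negative one, and the dimmest probe set differed by -0.22. The call held in 10 of 17 alternatives, with the limma adjusted p running from 0.00885 to 0.190. It was lost without overexpression replicate 1 or 2 (0.119 and 0.146) and without negative replicate 1 or 2 (0.112 and 0.0944).

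Some abundant hnRNP genes came near the threshold from below. HNRNPL, which binds CA-rich RNA, gave 2251, 2121 and 2439.8 with CT45A1 against 2982, 2847 and 2678 without it at one probe set, a difference of -0.32 (SE 0.08, limma adjusted p = 0.0565), and -0.18 at the other. HNRNPK, a KH-domain protein that binds C-rich RNA, gave 16757, 17455 and 17334 against 20095, 19115 and 20277, a difference of -0.21 (SE 0.05, limma adjusted p = 0.0620), and -0.15 at the other. Both genes were lower on all overexpression arrays at both probe sets, and none passed.

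On the upper side, HNRNPUL1, a relative of HNRNPUL2, differed by 0.24 (SE 0.07, limma adjusted p = 0.0718) at signals of 3859, 3849 and 3659.6 against 3183, 3315 and 3095, and by 0.23 at its dimmer probe set. HNRNPM, which binds G- and U-rich RNA, differed by 0.20 (SE 0.06, limma adjusted p = 0.0801) at signals of 9844, 9864 and 9413 against 8169, 8476 and 8637. The arrays of both were apart, but the brightest HNRNPM probe set differed by 0.03. HNRNPU, the scaffold attachment factor, differed by 0.19 (SE 0.06, limma adjusted p = 0.100) at one bright probe set and by -0.03 at the brightest.

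The remaining hnRNP genes had no call. HNRNPA2B1 gave 24151, 24413 and 22040.5 with CT45A1 against 25257, 25889 and 26792 without it at its brightest probe set, a difference of -0.14 (SE 0.06, limma adjusted p = 0.192). HNRNPC, which binds U-rich tracts of nascent transcripts, differed by -0.15 to 0.23 over 6 tested probe sets. HNRNPA1, which opposes SRSF1 at 5′ splice sites, differed by 0.01 at its brightest probe set and by -0.19 and -0.40 at dimmer ones. HNRNPH1 and HNRNPH3, which bind G-rich runs, differed by -0.16 to -0.03 and by -0.08 to 0.05. HNRNPD, known as AUF1, and its relative HNRNPDL differed by -0.32 to 0.12 and by -0.17 to 0.07. HNRNPA0 differed by -0.30 to -0.11, HNRNPR by -0.69 to -0.11, HNRNPLL by -0.42 to 0.13, HNRNPF by 0.03 and HNRNPAB by -0.02.

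**Figure D3:**
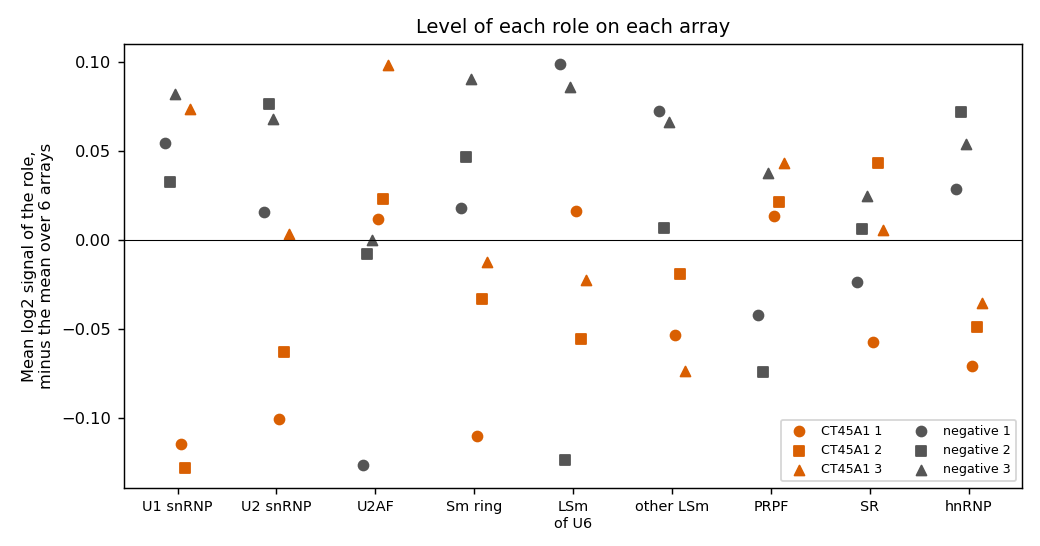
Mean log2 signal of the tested probe sets of each role (x axis) on each of the 6 arrays, minus the mean over arrays (y axis), with overexpression arrays in orange, negative arrays in grey and the replicate number as the shape. Sm ring means (11.91 to 12.01 against 12.04 to 12.11) and hnRNP means (11.13 to 11.16 against 11.23 to 11.27) are lower on all 3 overexpression arrays, and SR means overlap. The median of all tested probe sets, not drawn, is higher on those arrays (8.81 to 8.83 against 8.72 to 8.78).

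Levels averaged by role show how small these shifts were. The mean log2 signal of the Sm ring was 11.91, 11.98 and 12.01 on overexpression replicates 1, 2 and 3 against 12.04, 12.06 and 12.11 on the negative ones. For hnRNP genes it was 11.13, 11.15 and 11.16 against 11.23, 11.27 and 11.25. Along with these roles, U2 snRNP and the other LSm genes had means lower on all overexpression arrays, and U2AF had means higher on all of them. The SR means overlapped, at 10.25, 10.35 and 10.31 against 10.28, 10.31 and 10.33. The median of all tested probe sets was itself apart, at 8.82, 8.83 and 8.81 with CT45A1 against 8.72, 8.76 and 8.78 without it. Of single bright probe sets of any gene, 21.3% were lower on all overexpression arrays. Role means were not set beside means of other genes of like brightness. The actin ratio given above separated the same arrays, and with it as a covariate the median over members was -0.05.

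Probe sets of one gene often differed in sign, though some of these differences lay near 0, as for HNRNPH3 (-0.08 to 0.05). Of 50 genes with at least 2 tested probe sets, 16 had all differences below 0, 7 had all above and 27 had both signs. These counts were not set beside those of other genes. The median gap between the lowest and highest difference of a gene was 0.32. Whether such gaps exceed the spread was tested by fitting, for each probe set, its log2 ratio to the brightest probe set of the same gene, over 10874 pairs of all genes. This test was chosen after the values were seen. Of 113 pairs of members, 0 passed in limma and 12 had an unadjusted p under 0.05, against 1 and 1412 of all pairs (0.00920% called). The smallest p among members belonged to PRPF6, whose probe sets were nearly equally bright. Its probe set ending in _x_at shifted by -0.81 against the slightly brighter one (SE 0.12, limma adjusted p = 0.131). PRPF31 followed with 0.91 (SE 0.18, limma adjusted p = 0.179), HNRNPUL2 with -1.11 (SE 0.23, limma adjusted p = 0.185) and SRSF11 with -0.84 (SE 0.25, limma adjusted p = 0.264). For these genes, a shift of the probe set relative to the brightest one did not pass.

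**Figure D4:**
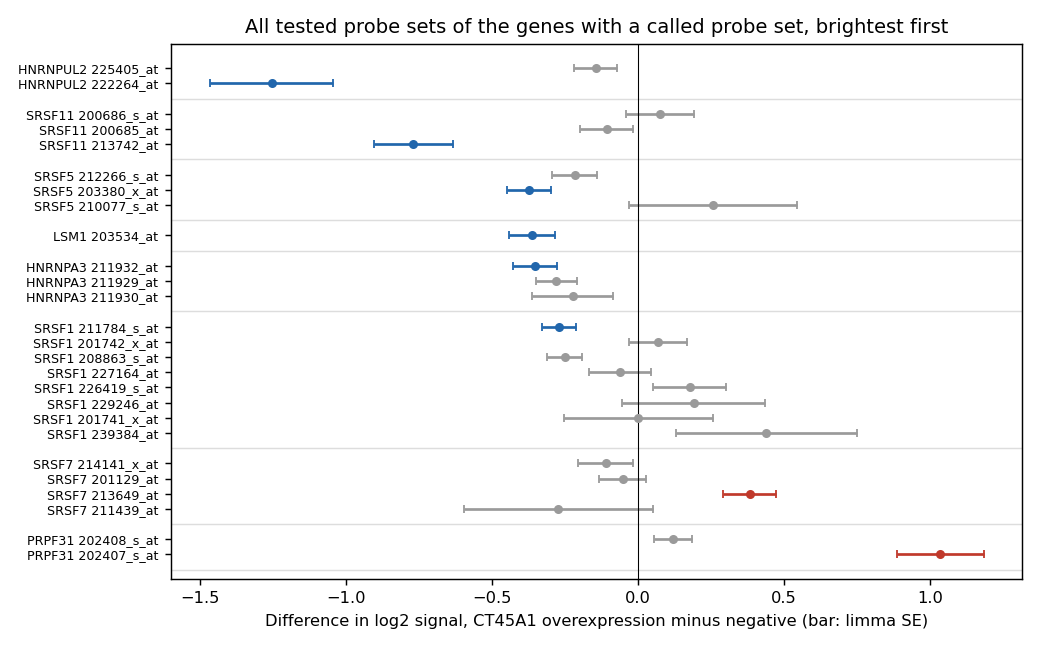
Difference in log2 signal (x axis, with limma SE) at every tested probe set of the 8 genes with a call, brightest first within each gene (y axis). The coloured probe set of HNRNPUL2 (-1.25), SRSF11 (-0.77) and PRPF31 (1.03) lies farther from 0 than the grey ones of the same gene, while the 3 HNRNPA3 probe sets lie together at -0.22 to -0.35.

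With 1 probe set per gene, the brightest, 3 of 74 member genes passed in limma, all lower: HNRNPA3, LSM1 and SRSF1. That is 4.05%, against 3.84% of 11895 genes. By this measure 56 member genes lay below 0 and 18 above, and the medians were -0.08 for members and 0.01 for all genes. Without the variance trend 0 of the 74 passed in limma, with 19 at an unadjusted p under 0.05.

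Other genes of the pathway were taken from a list of 113, among them further snRNP proteins, RNA helicases, SR kinases and other RNA-binding regulators. Of these, 105 were on the array under 1 symbol, and of their 261 tested probe sets 6 rose, 5 fell and 250 did not pass. The share called was 4.21% with a median of -0.03, against 3.23% and 0.03 over all tested probe sets. DDX23, the helicase that acts when U1 leaves the 5′ splice site, rose at both probe sets, by 0.74 (SE 0.09, limma adjusted p = 0.00501) and 0.51 (SE 0.11, limma adjusted p = 0.0427). Signals at the first were 1301, 1345 and 1203 with CT45A1 against 719, 829.8 and 761 without it. NONO, PSPC1 and SFPQ, the DBHS proteins of nuclear paraspeckles, supplied the other 4 increases; SFPQ and the weaker NONO probe set lie outside the naming rule and were picked after their values were seen. NONO rose by 0.55 and 0.41 at 2 probe sets and differed by -0.09 at its brightest. PSPC1 rose by 0.61 at 1 probe set and SFPQ by 0.38 at 1, while the brightest of each differed by -0.12 and -0.16.

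The 5 decreases were each in a different gene. RBM3, a cold-inducible RNA-binding protein, fell by 1.17 (SE 0.25, limma adjusted p = 0.0336), at signals of 155, 113 and 246 against 353, 369 and 379.997. TAF15, an RNA-binding protein, fell by 0.73 (SE 0.11, limma adjusted p = 0.0111), at signals of 1478, 1281 and 1457 against 2236, 2035 and 2745. TIAL1, which binds U-rich RNA near 5′ splice sites, fell by 0.55, and CELF2, a regulator of alternative exons, by 0.54. SNRNP27, a tri-snRNP protein also named after its values were seen, fell by 0.35. Of the 6 fits that left out 1 array, the stronger DDX23 and NONO probe sets passed in 6, TAF15 in 5, TIAL1 in 4, and the weaker DDX23 probe set, PSPC1, RBM3 and CELF2 in 1 each. With the actin ratio as a covariate 1 of the 261 passed.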

How the data were processed

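Each array's deposited table lists an intensity on a linear scale per probe set, 54675 in all; the authors computed it with MAS5 and affy, per the submitters' processing notes, which give no version. The 2% trimmed mean was 500.1 on every array. The 62 control probe sets were left out, intensities were taken to log2, and probe sets above the array median on at least 3 of 6 arrays were kept. Groups were compared with limma (lmFit, then eBayes with a variance trend), two-sided, with Benjamini-Hochberg adjustment over all 27618 kept probe sets and a threshold of 0.05; the fit was tested on simulated data. Names came from the platform annotation, with symbols updated by Entrez identifier. The number of arrays limits the precision. Members, lists and alternatives were chosen with earlier results of these data known. The naming rule took up to 5 called probe sets per role and direction, probe sets of the same gene with the opposite sign, the smallest p of a role without calls, and the 4 largest called changes per direction among other splicing genes; further members are given to account for each role. Alternatives covered normalization, filter, offset, variance model, an actin covariate, a replicate block and leaving out arrays. R 4.3.3 and limma 3.58.1 were used.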

Additional observations from a re-analysis of the deposited data

How the results depend on the processing

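The 8 called member probe sets kept their direction in every alternative they entered. Against 8 members, 11 other splicing probe sets and 892 of all past the threshold, centring on the array median gave 50 (1 higher, 49 lower), 51 (3 higher, 48 lower) and 2975 (387 higher, 2588 lower), with a member median of -0.22. Testing dim probe sets too gave 4, 6 and 486. Leaving out _x_at and _s_at probe sets gave 4, 6 and 446. A filter at the 75th percentile gave 14 members, and the actin covariate gave 1 member and 1 other splicing probe set. For these fits the count over all probe sets is not given. Whether 14 or 1 departs from the general rate of the same fit is therefore not shown. Without the variance trend limma gave 0, 0 and 4, with 38, 60 and 5042 at an unadjusted p under 0.05, and 0 member genes by the brightest probe set, with 19 unadjusted. Leaving out 1 array gave 2 to 6 members, 2 to 17 other splicing probe sets and 156 to 1152 of all. The causes were not tested.

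Some uncalled probe sets changed sign. A dim SRSF1 probe set (main value 0.0020) gave -0.14 with quantile normalization, -0.14 with centring, -0.14 with cyclic loess and -0.17 to 0.20 without 1 array, and a bright one (main value 0.07) gave -0.076 with centring, -0.23 with the actin covariate and -0.0033 to 0.16 without 1 array. The brightest SRSF11 probe set gave -0.068 with centring, -0.33 with the actin covariate and -0.0095 to 0.20 without 1 array, and the dimmest SRSF7 probe set gave 0.42 with the actin covariate. Same-numbered arrays of the groups deviated with correlations of -0.0113, -0.00682 and 0.103, and other pairs of arrays ran from -0.100 to 0.106. With 3 arrays per group these values cannot decide whether the numbers pair arrays, and the labels state no pairing. With a replicate block 10 members passed (2 higher, 8 lower), and 1189 of all probe sets.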
